A study of Mus musculus with 3 samples.

Results

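Skeletal muscle secretes peptides and proteins, called myokines, that act on the fibre itself, on neighbouring vessels and nerves, or on distant organs. Transcripts of 10 such genes were followed here, selected by gene symbol from the 42258 genes of the deposited tables: Ostn, Fndc5, Il15, Fgf21, Gdf15, Apln, Metrnl, Igf1, Igf2 and Bdnf. Each symbol matched 1 row in every table. A transcript level says nothing directly about how much of a factor is released, because several of these proteins are cut from a precursor or held by binding proteins.

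RNA of gastrocnemius and plantaris, the main muscles of the mouse calf, was sequenced from male mice in 3 groups. The aged EPA group (87 weeks, strain given as C57BL/6J) was fed, from 75 weeks of age and for 12 weeks, a diet with 1 wt% eicosapentaenoic acid (EPA), a fatty acid of fish oil. The aged control group (87 weeks, C57BL/6J) had eaten a diet deprived of EPA over the same weeks. The young group was 24 weeks old, its strain is written as C57BL/7J, and its diet is not given. RNA was pooled within each group, from 6 aged EPA, 6 aged control and 3 young mice, so that each group is 1 library and no test between groups is possible. Differences are therefore described by size, and the intervals given cover counting error alone, not the spread between mice or between library preparations.

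The libraries held 55969822 counts for aged EPA, 57622886 for aged control and 57386394 for young. Values are CPM as deposited, that is, counts divided by a library size, although the divisor alternated between genes and the columns do not have equal sums. A change is the log2 ratio of CPM + 1, which understates the change of rare transcripts, and a count ratio is the ratio of recovered whole counts over each library's own total, with its exact 95% counting interval. Muscle fibre markers were abundant in all libraries, with a summed level over 10 genes of 114552, 115824 and 99924 CPM in aged EPA, aged control and young, while albumin stood at 0.624, 0.318 and 0.286 CPM and the other 3 liver markers were at 0. Of the marker lists, red cell markers differed most between the ages, with sums over 5 genes of 565 CPM in aged EPA, 561 CPM in aged control and 1508 CPM in young.

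Of the 10 genes, 7 averaged 1 CPM or more and were set beside the 12966 genes that did so. Bdnf, Gdf15 and Fgf21 did not pass. In aged control against young, 1 of the 7, Ostn, was past 2-fold upwards (0.895% of all compared genes, and 2.69% past 1.5-fold) and 0 were past it downwards (0.841%), so that 1 of 7 was past 2-fold either way (1.74%). In aged EPA against aged control 0 of the 7 were past 2-fold upwards (0.694%), downwards (0.640%) or either way (1.33%), and 0 were past 1.5-fold downwards (1.91%). In aged EPA against young 0 of the 7 were past 2-fold upwards (0.802%), downwards (0.802%) or either way (1.60%), but Ostn was past 1.5-fold upwards (2.40%) and 0 were past 1.5-fold downwards (2.96%). That 0 rests on the 1 added to CPM: with 0.1 added in its place, Apln stood at -0.75 in aged EPA against young and was past 1.5-fold. By any size, 3 of the 7 were lower and 4 higher in aged control against young, where 52.4% of compared genes were lower, but Il15, Igf2 and Metrnl were so near 0 that their side depended on the scaling. The median change of the 7 was 0.0081 in aged control against young (-0.013 over all compared genes), -0.17 in aged EPA against aged control (-0.026 over all) and -0.15 in aged EPA against young (-0.037). Over all 10 genes the medians were -0.018, -0.16 and -0.13, and they stayed so with Fgf21 set at the bound that its count of 0 allows.

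**Figure D1:**
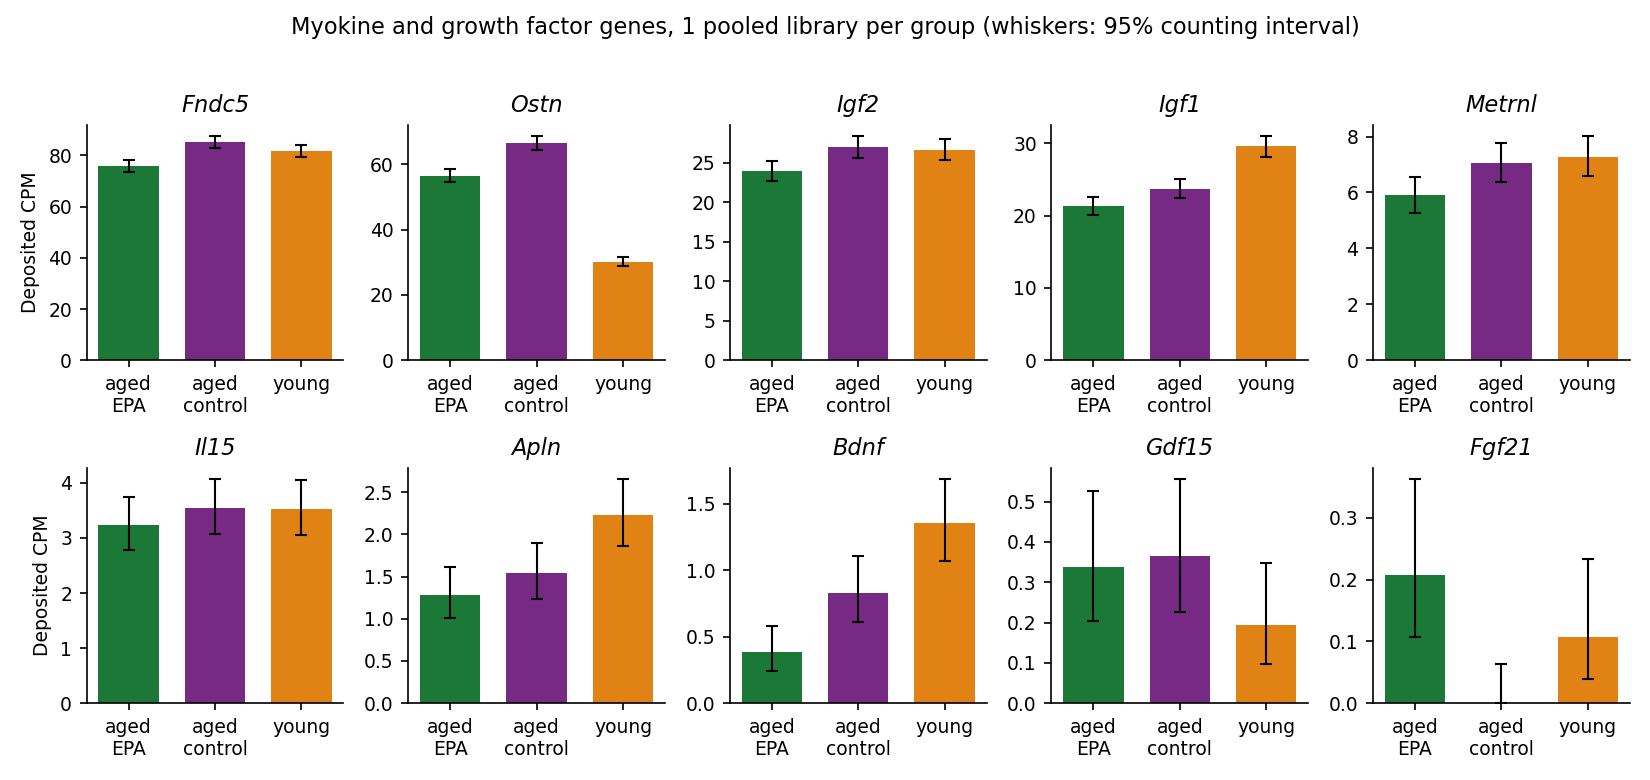
Deposited CPM (vertical axes, each starting at 0 with its own scale) of the 10 genes in the aged EPA, aged control and young library, with whiskers for the 95% counting interval of each single library. Ostn is at 56.5 and 66.5 CPM in the aged libraries and 30.2 CPM in young, and Fgf21 is at 0 in aged control. Igf1, Apln and Bdnf descend from young through aged control to aged EPA, as does Metrnl, with little between young and aged control.

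Per kilobase of exon, the only scale on which levels of different genes are set side by side here, Ostn and Fndc5 stood far above the rest. Ostn reached 39.7, 46.8 and 21.2 CPM per kb in aged EPA, aged control and young, above 93.6%, 94.6% and 88.2% of the compared genes. Fndc5 reached 27.4, 30.8 and 29.5 CPM per kb. Ostn thus ranked above Fndc5 in both aged libraries and below it in young, without overlap of the counting intervals in any library. Igf2, Metrnl, Igf1 and Il15 followed in this order in every library, from 4.18 for Igf2 to 1.43 for Il15 in aged EPA, from 4.71 to 1.57 in aged control and from 4.65 to 1.56 in young. The intervals of Igf2 and Metrnl overlapped in all 3 libraries, so that those neighbours were not told apart. Apln came next at 0.407, 0.489 and 0.708 CPM per kb, overlapping Fgf21 in aged EPA, and Gdf15, Bdnf and Fgf21 lay at 0.219 CPM per kb or less in every library. Of these, Fgf21 and Gdf15 overlapped in aged EPA, and Gdf15 and Bdnf in aged control. In young, Bdnf, Fgf21 and Gdf15 each overlapped both of the others.

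Ostn encodes osteocrin, also called musclin, a secreted peptide that binds the natriuretic peptide clearance receptor and so spares natriuretic peptides from removal. The gene lies on chromosome 16 (27307489 to 27351212, plus strand, GRCm38) with a single annotated transcript of 1423 bases. It stood at 56.5 CPM (3257 counts) in aged EPA, 66.5 CPM (3763 counts) in aged control and 30.2 CPM (1693 counts) in young. Both aged libraries were high and the young library was low. The change was 1.11 in aged control against young, the 93rd highest of 12966 genes, with a count ratio of 2.21 (2.09 to 2.35). Aged EPA was a little below aged control, with a change of -0.23 and a count ratio of 0.891 (0.850 to 0.934). Between aged EPA and young the change was 0.88, with a count ratio of 1.97 (1.86 to 2.09). An antisense gene model shares 184 exon bases with Ostn, and whether counting used strand is not given in the sources used here. The same limit holds for Igf2 (98 bases) and for Npr1, Npr2, Npr3, Itgav, Fgfr1, H19, Foxo1 and Sort1 below, which also share exon bases with models on the opposite strand.

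The natriuretic peptide receptors did not show a difference of that size. Npr3, which encodes the clearance receptor that osteocrin binds, stood at 8.26 CPM in aged EPA, 7.83 CPM in aged control and 6.93 CPM in young. The signalling receptors Npr1 and Npr2 stood at 20.8, 22.6 and 24.6 CPM and at 45.2, 44.3 and 42.3 CPM in the same order. Among 9658 other genes that averaged 5 CPM or more, the 5 whose 3 centred log2 levels lay nearest to those of Ostn were Socs2, Tekt1, Cask, Atp11a and Hoxa7, at Euclidean distances of 0.042 to 0.12 over 3 libraries. Socs2, which encodes a suppressor of growth hormone and cytokine signalling, stood at 7.60 CPM in aged EPA, 9.41 CPM in aged control and 3.63 CPM in young. Atp11a and Hoxa7 share exon bases with antisense models. Likeness over 3 libraries is a weak description, and nothing more is read from it.

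Fndc5 encodes a membrane protein whose outer part is released as irisin. It lies on chromosome 4 (129136999 to 129144593, plus strand) and stood at 75.8 CPM (4372 counts) in aged EPA, 85.2 CPM (4819 counts) in aged control and 81.6 CPM (4575 counts) in young. The 3 libraries were close, with aged EPA lowest. The count ratios were 1.05 (1.01 to 1.09) for aged control against young, 0.934 (0.896 to 0.973) for aged EPA against aged control and 0.980 (0.940 to 1.02) for aged EPA against young. Itgav and Itgb5, whose integrin is a reported irisin receptor, stood at 25.6, 30.3 and 23.9 CPM and at 114, 115 and 102 CPM in aged EPA, aged control and young. Ppargc1a, which encodes the coactivator PGC-1alpha that raises Fndc5 transcription in exercised muscle, was at 61.2 CPM in aged EPA, 85.1 CPM in aged control and 76.4 CPM in young (count ratio of aged EPA over aged control 0.724, 0.693 to 0.757). As a list, the 12 compared genes of the PGC-1 axis had 6 higher and 6 lower between aged EPA and aged control, with a median of -0.0063, where 44.2% of all compared genes were higher and 55.8% lower.

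**Figure D2:**
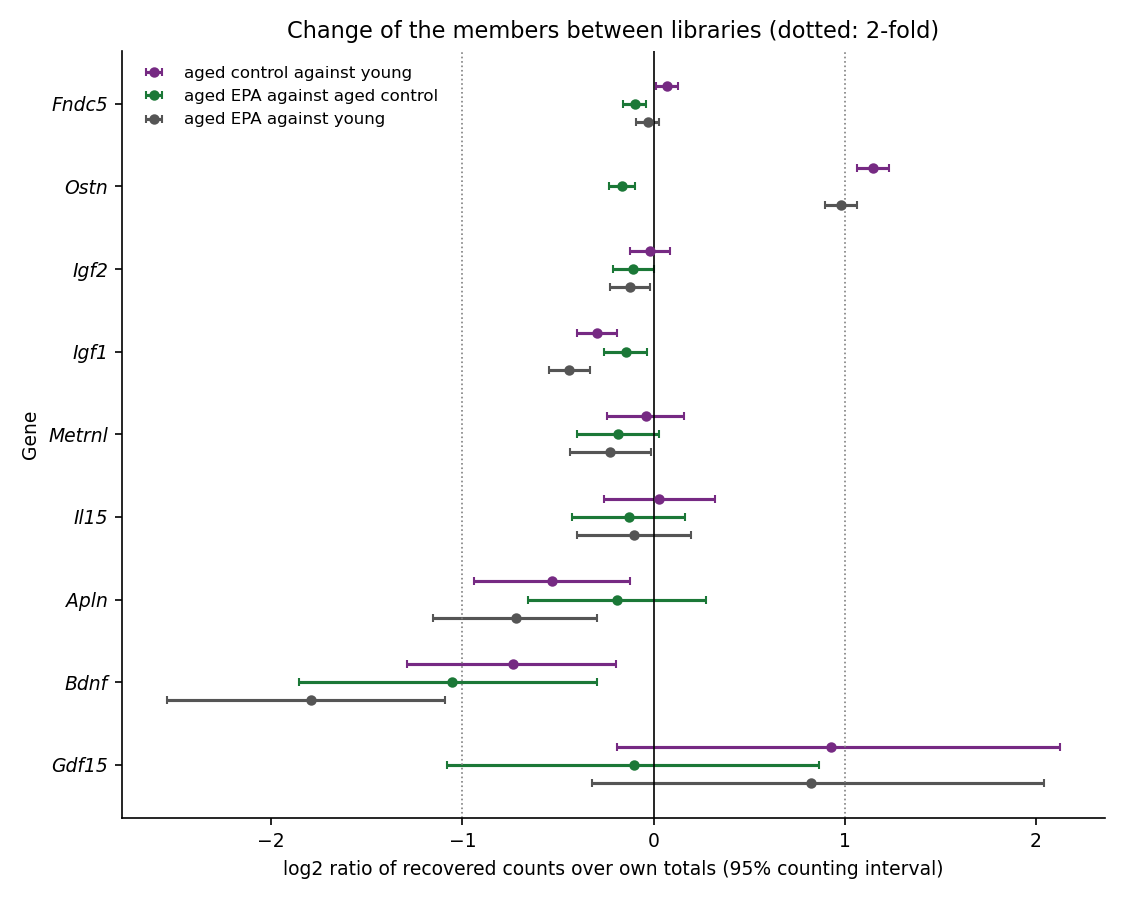
Log2 ratio of recovered counts over own library totals (horizontal axis) with 95% counting intervals for 9 of the 10 genes in 3 comparisons; Fgf21 is left out because its count in aged control was 0. Ostn stands at 1.15 and 0.98 in the comparisons with young, Igf1, Apln and Bdnf stand below 0 with their whole intervals in both, and the intervals widen downwards as counts get fewer.

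Metrnl encodes meteorin-like, a secreted protein of muscle and fat that acts on immune cells and vessels. It lies on chromosome 11 (121701544 to 121716306, plus strand) and stood at 5.89 CPM (340 counts) in aged EPA, 7.04 CPM (398 counts) in aged control and 7.28 CPM (408 counts) in young. Aged EPA was the lowest, and both other libraries were near each other. The count ratio was 0.972 (0.844 to 1.12) for aged control against young, 0.880 (0.759 to 1.02) for aged EPA against aged control and 0.854 (0.738 to 0.989) for aged EPA against young. Kit, a receptor tyrosine kinase reported to bind meteorin-like, stood at 3.03, 3.88 and 2.31 CPM in aged EPA, aged control and young.

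Il15 encodes interleukin 15, a cytokine that supports lymphocytes and is presented to them by the receptor chain Il15ra. The gene lies on chromosome 8 (82331632 to 82403222, minus strand) and stood at 3.23 CPM (181 counts) in aged EPA, 3.55 CPM (204 counts) in aged control and 3.53 CPM (199 counts) in young. All pairwise counting intervals included a ratio of 1, with 1.02 (0.836 to 1.25) for aged control against young and 0.914 (0.744 to 1.12) for aged EPA against aged control. Il15ra was likewise close in the 3 libraries, at 13.4, 14.1 and 13.3 CPM in aged EPA, aged control and young. The signalling chain Il2rb was near the limit of counting, with 11, 10 and 11 counts in the same order.

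Igf1 and Igf2 encode insulin-like growth factors, which act through the receptor Igf1r to drive fibre growth, while Igf2r takes up and clears IGF2. Igf1 (chromosome 10, 87858265 to 87937042, plus strand) stood at 21.3 CPM (1201 counts) in aged EPA, 23.7 CPM (1368 counts) in aged control and 29.5 CPM (1671 counts) in young. Both aged libraries were below young. The change was -0.31 in aged control against young, with 11.5% of compared genes lower still, and the count ratio was 0.815 (0.759 to 0.876). The count ratio of aged EPA over aged control was 0.904 (0.836 to 0.977), and that of aged EPA over young was 0.737 (0.684 to 0.794). Igf1 has the longest merged exons of the set, 9904 bases. With the trend of all genes with length subtracted its change in aged EPA against aged control was -0.050, against -0.15 without. In aged control against young the same step took it the other way, to -0.39 from -0.31, and in aged EPA against young it was -0.44, against -0.46 without. Tissue macrophages and fibroblasts of muscle are known to express Igf1 besides the fibres. Macrophage markers had summed levels over 9 genes of 347 CPM in aged EPA, 333 CPM in aged control and 322 CPM in young. In aged control 3 of 9 were below young (52.4% of all compared genes were), and none was at 0. Fibro-adipogenic progenitor markers summed over 7 genes to 1145, 1135 and 1162 CPM in the same order, of which Dcn alone made up 831, 845 and 830 CPM. In aged control 3 of 7 were below young (52.4% of all compared genes were), and none was at 0. Ly6a of that list changed most, by -1.47 in aged control against young and by 1.18 in aged EPA against aged control. In the latter comparison 5 of the 7 were lower (55.8% of all compared genes were). In bulk RNA, fewer cells of a type and less RNA per cell cannot be told apart.

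Igf2 (chromosome 7, 142650766 to 142666816, minus strand) did not share that difference between the ages. It stood at 23.9 CPM (1375 counts) in aged EPA, 27.0 CPM (1523 counts) in aged control and 26.6 CPM (1536 counts) in young. The count ratio of aged control over young was 0.988 (0.919 to 1.06), that of aged EPA over aged control 0.930 (0.864 to 1.00) and that of aged EPA over young 0.918 (0.853 to 0.988). H19, a long noncoding RNA that is imprinted opposite to Igf2 and shares its enhancers, lies on the same strand of chromosome 7 (142575529 to 142578143). H19 stood at 177 CPM (10149 counts) in aged EPA, 87.7 CPM (4951 counts) in aged control and 78.0 CPM (4500 counts) in young, so that aged EPA was high and both others were near each other. The count ratio of H19 was 2.11 (2.04 to 2.18) for aged EPA over aged control and 1.10 (1.05 to 1.14) for aged control over young. The list of IGF binding and release genes also holds H19, which is a noncoding RNA and not a binding protein. Of its 9 compared genes, H19 alone was past 2-fold upwards in aged EPA against aged control (0.694% of all compared genes). A microRNA gene, Mir675, lies within H19. Igf2 shares 3596 exon bases with another gene model on the same strand, and that model was not used here.

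On the scale of CPM + 1 the largest change of H19 over the 3 comparisons was 1.17 (aged EPA against young), and that of the other 8 compared genes of the list was -0.71 (Igf2bp2, aged control against young). Igf1r stood at 4.18, 4.26 and 3.55 CPM in aged EPA, aged control and young, Insr, the insulin receptor, at 67.8, 75.9 and 71.4 CPM, and Igf2r at 69.7, 77.1 and 58.6 CPM. Igfbp5, a binding protein of muscle and bone, was at 610.4, 613 and 645 CPM. Igfbp3, which encodes the main carrier of IGFs in blood, stood at 25.7 CPM in aged EPA, 30.2 CPM in aged control and 38.7 CPM in young, a count ratio of 0.759 (0.712 to 0.809) for aged control over young and of 0.885 (0.825 to 0.950) for aged EPA over aged control. Igfbp3 therefore descended from young to aged control to aged EPA, as Igf1 did and as 22.1% of all compared genes did. Pappa, a protease that frees IGFs from a binding protein, was rare, with 51, 16 and 49 counts in aged EPA, aged control and young and a count ratio of 3.28 (1.84 to 6.17) for aged EPA over aged control. Stc2, an inhibitor of that protease, stood at 2.90, 1.75 and 2.35 CPM in the same order. Igf2bp2, which encodes a protein that binds Igf2 messenger RNA, stood at 1.20 CPM in aged EPA, 0.905 CPM in aged control and 2.13 CPM in young, a count ratio of 0.432 (0.305 to 0.602) for aged control over young.

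Downstream of the IGF receptor, 0 of 16 compared signalling genes was 1.5-fold apart in any comparison, against 5.24%, 3.60% and 5.36% of all compared genes for aged control against young, aged EPA against aged control and aged EPA against young. Their medians were -0.11, -0.032 and -0.057. Trim63, which encodes the atrophy ligase MuRF1 that insulin and IGF signalling restrains, was at 347, 320.4 and 459.5 CPM in aged EPA, aged control and young. Foxo1, a transcription factor of the same brake, was at 63.4, 67.1 and 84.0 CPM, and Grb10, an adaptor that dampens both receptors, at 28.0, 39.8 and 33.2 CPM. Pik3ca, a catalytic subunit of the kinase below the receptors, was at 38.5, 46.0 and 50.5 CPM.

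Apln encodes apelin, a peptide of muscle, vessels and fat that acts through the receptor Aplnr, which endothelial cells carry. The gene lies on chromosome X (48025146 to 48034853, minus strand) and stood at 1.28 CPM (74 counts) in aged EPA, 1.54 CPM (87 counts) in aged control and 2.23 CPM (125 counts) in young. Both aged libraries were low. The count ratio was 0.693 (0.521 to 0.919) for aged control against young, 0.607 (0.449 to 0.816) for aged EPA against young and 0.876 (0.634 to 1.21) for aged EPA against aged control. The receptor was also lower in the aged libraries: Aplnr stood at 5.43 CPM (307 counts) in aged EPA, 4.39 CPM (246 counts) in aged control and 8.22 CPM (472 counts) in young. The count ratio of Aplnr was 0.519 (0.443 to 0.607) for aged control over young and 1.29 (1.08 to 1.53) for aged EPA over aged control. Of 16 compared receptors, Aplnr alone was past 1.5-fold downwards in aged control against young (2.55% of all compared genes). Endothelial markers were mostly below young as well: 7 of 8 were so in aged control (52.4% of all compared genes were), with a median of -0.34, and none was at 0. The summed level was 339 CPM in aged EPA, 349 CPM in aged control and 433 CPM in young. In aged EPA against aged control, where Aplnr was higher, 5 of the 8 were lower (55.8% of all compared genes were), with a median of -0.041. Adipocyte markers were below young in 6 of 7 genes in aged control (52.4% of all compared genes were), with a median of -0.24. In aged EPA against aged control, where Apln was nominally lower, 7 of the 7 were higher (44.2% of all compared genes were), with a median of 0.20. The part of endothelial cells or adipocytes in the values of Apln and Aplnr was not tested.

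Gdf15 and Fgf21 are stress hormones that the transcription factor ATF4 switches on in muscle with impaired mitochondria. GDF15 acts on the receptor Gfral in the hindbrain, and FGF21 needs the co-receptor Klb beside Fgfr1. Both transcripts were near the limit of counting. Gdf15 (chromosome 8, 70629393 to 70632456, minus strand) had 19 counts (0.337 CPM) in aged EPA, 21 counts (0.364 CPM) in aged control and 11 counts (0.194 CPM) in young. The aged libraries were nominally higher, but the counting interval of the ratio of aged control over young, 1.90 (0.876 to 4.37), included 1. Fgf21 (chromosome 7, 45613886 to 45615490, minus strand) had 12 counts (0.208 CPM) in aged EPA, 0 in aged control, which allows up to 0.0521 CPM at 3 counts, and 6 counts (0.107 CPM) in young. With the 12 counts taken as they stand, Fgf21 in aged EPA was 4.12-fold above that floor, a figure that leaves out the counting error of the 12. The 95% counting intervals were 0.107 to 0.363 CPM in aged EPA, 0 to 0.0640 CPM in aged control and 0.0393 to 0.233 CPM in young, so that aged control and young overlapped and were not told apart at this depth. The count ratio of aged EPA over young, 2.05 (0.712 to 6.66), included 1. By nominal value only, Fgf21 was the sole gene of the set with aged EPA highest and aged control lowest. Those orders were shown by 24.9% and 30.3% of compared genes, which Fgf21 is not among. The receptor genes Gfral, with 0 counts in every library, and Klb, with 0, 0 and 6 counts in aged EPA, aged control and young, were barely or not detected at this depth, while Fgfr1 stood at 117, 102 and 102 CPM.

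The promoter windows of Fgf21 and Gdf15 are shown because ATF4 is known to drive both genes. Sequences are from RefSeq on GRCm38.p6, from 250 bases before to 50 after an annotated start, and cover 18 starts of 8 of the 10 genes, all but Ostn and Il15. Capitals mark a match to the ATF4 response element core TGATGNAA on either strand. The Fgf21 window lies at chr7:45615441-45615740 on the minus strand, and the Gdf15 windows at chr8:70632407-70632706 and chr8:70632046-70632345, also on the minus strand.
Fgf21: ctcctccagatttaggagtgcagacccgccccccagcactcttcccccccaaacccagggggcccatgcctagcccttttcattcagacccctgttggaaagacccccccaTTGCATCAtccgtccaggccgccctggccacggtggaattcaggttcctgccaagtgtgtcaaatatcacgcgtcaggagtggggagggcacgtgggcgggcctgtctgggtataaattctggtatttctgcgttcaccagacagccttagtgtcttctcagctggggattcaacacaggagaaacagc
Gdf15 first start: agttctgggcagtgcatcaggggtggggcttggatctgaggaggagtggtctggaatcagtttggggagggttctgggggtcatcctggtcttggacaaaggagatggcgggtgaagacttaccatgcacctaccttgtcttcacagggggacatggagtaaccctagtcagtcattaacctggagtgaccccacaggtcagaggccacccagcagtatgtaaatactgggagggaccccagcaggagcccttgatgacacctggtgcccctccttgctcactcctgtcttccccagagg
Gdf15 second start: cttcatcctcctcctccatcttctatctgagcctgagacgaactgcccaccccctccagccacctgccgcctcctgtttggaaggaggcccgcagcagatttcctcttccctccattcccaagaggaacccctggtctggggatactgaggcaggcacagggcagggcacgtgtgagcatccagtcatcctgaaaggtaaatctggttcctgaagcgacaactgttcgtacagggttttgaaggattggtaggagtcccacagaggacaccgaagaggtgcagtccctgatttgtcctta
The Fgf21 window held 1 match, which begins at -139 from the start, and neither Gdf15 window held these letters. Of 32851 windows of that length in the mouse table, 3.97% held a match. A match is a description of letters, not of binding in these muscles.

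In aged EPA, 14 of 17 compared ATF4 pathway genes other than these were higher than in aged control (44.2% of all compared genes were), with a median of 0.098. Mthfd2, a mitochondrial folate enzyme, stood at 7.56 CPM (427 counts) in aged EPA, 3.05 CPM (176 counts) in aged control and 4.44 CPM (251 counts) in young. Its count ratio was 2.50 (2.09 to 2.99) for aged EPA over aged control, and on the scale of CPM + 1 it alone of the 17 was past 1.5-fold upwards there (1.69% of all compared genes). Chac1, a glutathione-degrading enzyme, stood at 120.3, 83.2 and 94.5 CPM in aged EPA, aged control and young, and Sesn2, a stress-induced inhibitor of mTORC1, at 4.54, 2.79 and 3.55 CPM. The count ratio of Sesn2 for aged EPA over aged control, with no 1 added, was 1.64 (1.34 to 2.01). These 3 genes, named for having the largest changes of the list, had aged control lowest, as had 30.3% of all compared genes. Nupr1, named by the same rule, had young lowest. Fgf21 had aged control lowest by nominal value only, since it was not told apart from young. In aged control against young, 7 of the 17 were higher (47.5% of all compared genes), with a median of -0.033. Atf4 itself was at 148, 145 and 166 CPM in aged EPA, aged control and young, and Nupr1, a stress-induced chromatin protein, at 8.57, 8.18 and 6.45 CPM.

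**Figure D3:**
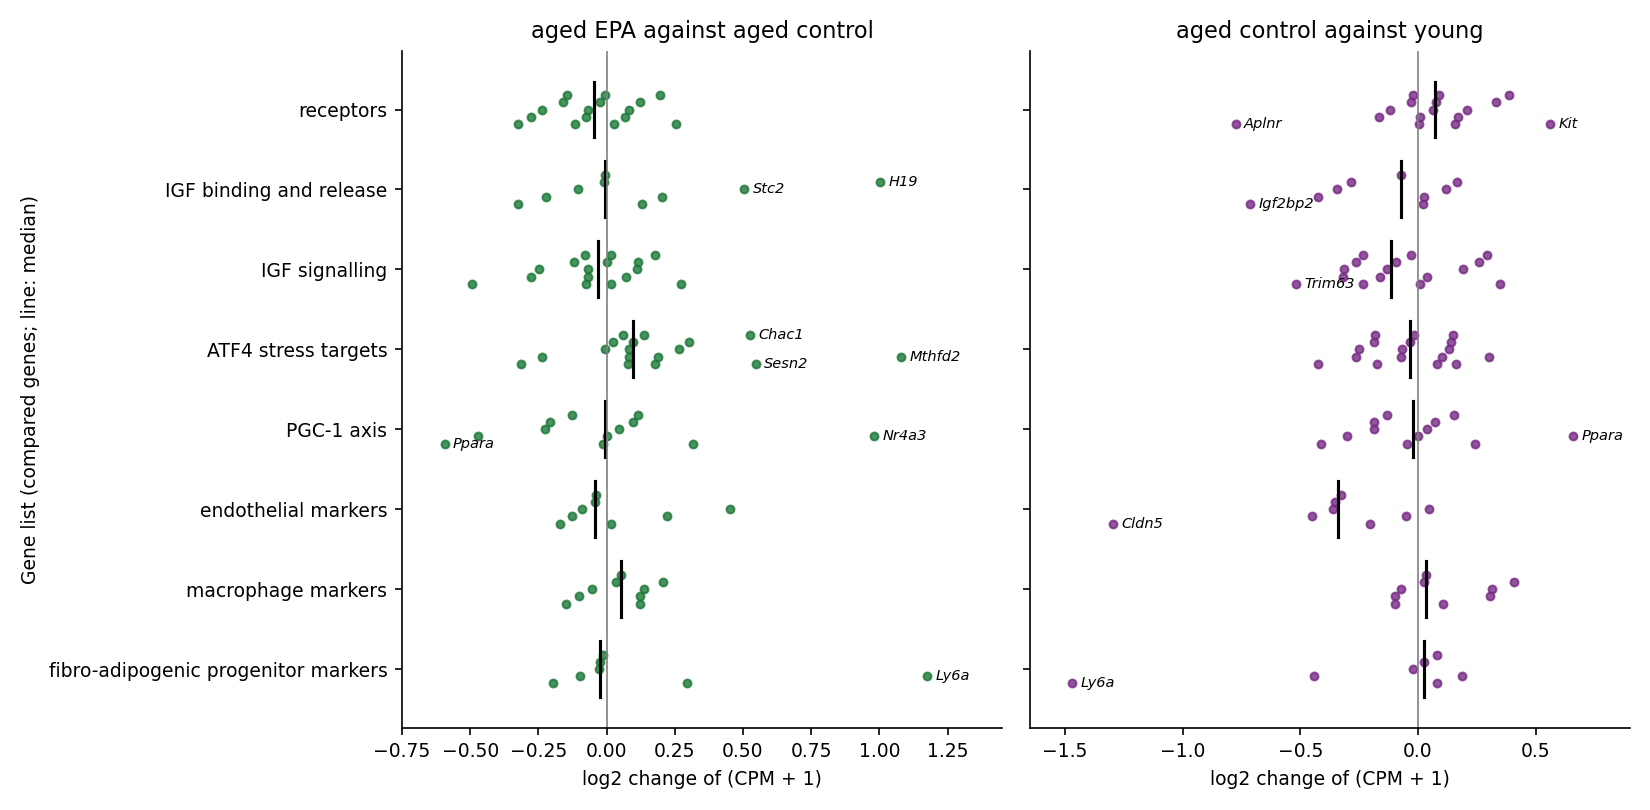
Log2 change of CPM + 1 (horizontal axes) of compared genes in 8 lists of partner genes and cell markers, for aged EPA against aged control (left) and aged control against young (right); each point is a gene, the vertical line the list's median. H19, Mthfd2, Nr4a3 and Ly6a stand farthest to the right on the left, and Ly6a, Cldn5, Aplnr and Igf2bp2 farthest to the left on the right.

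Bdnf encodes brain-derived neurotrophic factor, which acts through the kinase Ntrk2 on neurons and is made by muscle fibres and satellite cells in small amounts. The gene lies on chromosome 2 (109674700 to 109727007, plus strand). It had 22 counts (0.383 CPM) in aged EPA, 47 counts (0.833 CPM) in aged control and 78 counts (1.35 CPM) in young. The order was strict, with young highest and aged EPA lowest. The count ratio was 0.600 (0.409 to 0.873) for aged control against young, 0.482 (0.277 to 0.816) for aged EPA against aged control and 0.289 (0.172 to 0.469) for aged EPA against young, and none of these intervals included 1. On the scale of CPM + 1 the same changes were -0.36, -0.41 and -0.77, so the added 1 conceals much of the difference in so rare a transcript. An antisense gene model shares 896 exon bases with Bdnf. The receptors stood at 13.9, 13.1 and 14.8 CPM for Ntrk2 and at 118, 124 and 126 CPM for Sort1, a sorting receptor of the BDNF precursor, in aged EPA, aged control and young. Ngfr, the low-affinity neurotrophin receptor, had 59, 54 and 26 counts.

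Satellite cell markers were lower in both aged libraries: 4 of 4 compared genes were below young in aged control (52.4% of all compared genes were), with a median of -0.28, the summed level over 5 genes was 37.3 CPM in aged EPA, 37.3 CPM in aged control and 49.7 CPM in young, and none was at 0. Pax7, the defining factor of satellite cells, stood at 1.32, 2.13 and 2.37 CPM in that order. Schwann cell markers, another source of neurotrophins, summed over 7 genes to 198 CPM in aged EPA, 181 CPM in aged control and 178 CPM in young, and none was at 0. In aged control 4 of the 7 were below young (52.4% of all compared genes were) and 3 above. In aged EPA against aged control, where Bdnf was lower, 7 of the 7 were higher (44.2% of all compared genes were), with a median of 0.17. The part of either cell type in the Bdnf values was not tested.

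Bdnf has several starts with a promoter each, and the gene counts sum over them, so it is not known which were in use. RefSeq gives 7 windows, and window 3 is shown because it holds the core letters TGACGT of the cyclic AMP response element, searched on both strands; that motif was chosen after the values were seen. It lies at chr2:109692186-109692485 on the plus strand, and capitals mark the match.
Bdnf start 3: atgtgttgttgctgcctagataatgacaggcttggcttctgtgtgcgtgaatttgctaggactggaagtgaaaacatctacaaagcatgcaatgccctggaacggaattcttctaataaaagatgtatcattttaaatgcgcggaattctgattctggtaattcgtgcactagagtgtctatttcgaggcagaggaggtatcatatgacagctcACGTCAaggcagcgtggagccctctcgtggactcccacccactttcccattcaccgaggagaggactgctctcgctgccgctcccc
The match begins at -36 from the start. It was the only 1 of the 18 windows of these genes with those letters, which 7.51% of all windows hold and which overlaps no ATF4 core here. Window 7 of Bdnf held an ATF4 core that begins at 8 from its start.

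**Figure D4:**
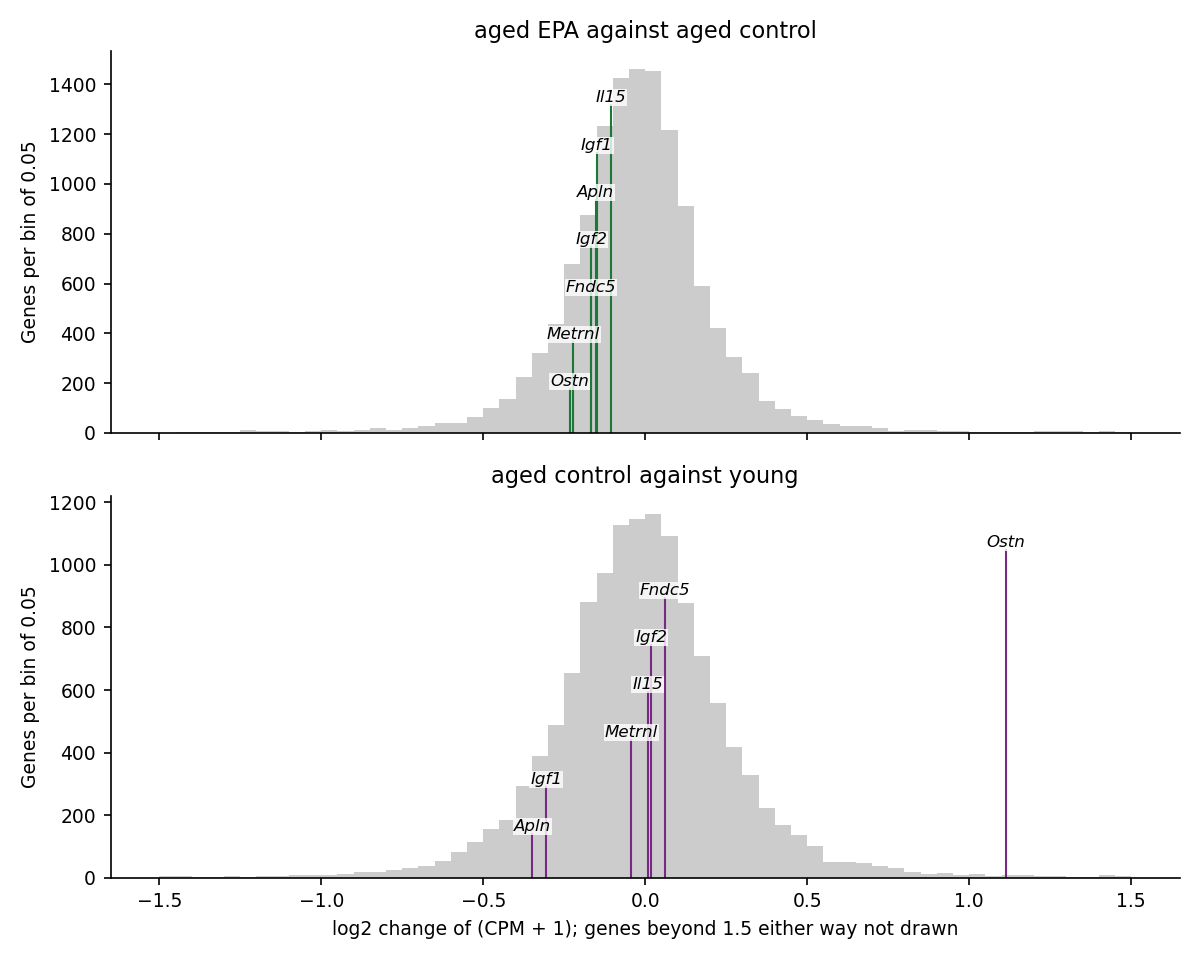
Number of compared genes per bin of log2 change of CPM + 1 (grey), with the 7 compared genes of the set marked, for aged EPA against aged control (top) and aged control against young (bottom); line heights only keep the names apart. In the upper panel the 7 lie between -0.23 and -0.11, and in the lower panel Ostn stands alone at 1.11.

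Against aged control, the aged EPA library was lower in 9 of the 10 genes, all except Fgf21. Among the 7 compared genes it was lower in 7, where 55.8% of all compared genes were lower, and the changes were small, from -0.23 for Ostn to -0.11 for Il15. Each of the 7 lay well inside the spread of all genes, with between 13.7% and 32.5% of compared genes lower still. The deposited CPM put aged EPA low as a whole, since the columns sum to 988188, 1011788 and 1009954 in aged EPA, aged control and young. With recovered counts over own totals the 7 genes were again all lower, with a median of -0.11, where 47.0% of compared genes were lower and their median was 0.013. On that scale Ostn stood at -0.16 and Fndc5 at -0.097, both nearer to 0 than on deposited CPM by more than the half-width of their counting intervals. Counting intervals of the ratio excluded 1 for Ostn, Fndc5, Igf1 and Bdnf, and included it for Il15, Apln, Metrnl, Igf2 and Gdf15. An interval that excludes 1 says that the libraries differ, not that the diets do.

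Against young, the set split. Age, the strain as written, the diet and the number of mice pooled differ together there, so that they cannot be told apart. Relative to young, both aged libraries were high in Ostn, low in Igf1, Apln and Bdnf, and closer to young in Fndc5, Il15 and Igf2. Metrnl was near young in aged control and lower in aged EPA. In aged EPA against young, 6 of the 7 compared genes were lower and 1 higher, where 56.7% of all compared genes were lower and 43.3% higher, with changes from -0.50 for Apln to 0.88 for Ostn. Aged EPA lay below both other libraries in 6 of the 7, Fndc5, Il15, Apln, Metrnl, Igf1 and Igf2, an order that 37.4% of compared genes showed. Ostn alone of the 7 had aged EPA between aged control above and young below, as had 18.4% of compared genes. On deposited CPM aged control was the highest library in 4 of the 7 (33.7% of compared genes), Ostn, Fndc5, Il15 and Igf2, but for Il15 and Igf2 the counting interval of its ratio over young included 1, and over own totals Igf2 was higher in young. The comparisons share libraries, so that a high or low value in 1 library enters 2 of them.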

How the data were processed

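Total RNA of gastrocnemius and plantaris, pooled within each of 3 groups, gave 1 library per group, per the labels. The submitters' processing notes name HISAT2 2.1.0, StringTie 1.3.4d, R 3.5.0 and build GRCm38. The deposited values are CPM per gene, calculated by the authors. In the deposited tables each CPM value is a whole count over 1 of 5 divisors (56034275 to 57687235) that alternate between genes, of which 3 lay within 0.2% of a recovered library total and 2 near none, so whole counts were recovered (largest distance from a whole number 3.03e-09). Deposited CPM lay between -2.98% and 2.84% of CPM over own totals, which shifted a log2 change by at most 0.078. CPM were summed over 63 rows with repeated symbols, with a pseudocount of 1 and a mean of at least 1 CPM. Ratio intervals are exact (Clopper-Pearson, conditional on both counts), level intervals exact Poisson. Lengths are merged exons of GENCODE M21 on GRCm38.

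With 1 library per group no test was run. Count recovery and intervals were checked on simulated data. The genes and lists were chosen with earlier results of these data known. Named were all 10 genes, some of their textbook partners in the receptor and IGF lists, and the 5 genes nearest to Ostn. Up to 4 genes with the largest change were also named from each list other than those of cell markers. Of the cell marker lists, given mostly as sums and counts, only Pax7, Ly6a, Cldn5, Pdgfra, Dcn and albumin were named. Atf4, Ppargc1a, Mstn, Erfe, Il6, Pdgfra, Dcn and albumin were named beside the rule of largest change, with their values known. Analyses used Python 3.11.15, numpy 2.4.6, scipy 1.17.1 and pandas 2.3.3.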

Additional observations from a re-analysis of the deposited data

How the results depend on the processing

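Across 10 alternatives in each of 3 comparisons, 289 of 300 values of single genes moved by less than the half-width of the gene's 95% counting interval, 11 moved by more, and no value past 2-fold changed sign. Fgf21, with a count of 0, has no ratio interval, and its limits were taken from those of each library; it was at 1.62 in aged EPA against aged control with a pseudocount of 0.1 and at 0.059 with 5, against 0.27. The alternatives were pseudocounts of 0.1 and 5, no filter, a mean of at least 5 CPM, median-of-ratios and TMM scaling, recovered counts over own totals, leaving out mitochondrial and the 20 most abundant genes, subtraction of the trend with transcript length, and, chosen after seeing the data, recovered counts with TMM. The median of the compared members ranged from -0.018 to 0.051 in aged control against young, with the other sign under 3 of 10, from -0.17 to -0.11 in aged EPA against aged control and from -0.16 to -0.11 in aged EPA against young. With 1.5-fold in place of 2-fold, 1 gene (Ostn) in place of 0 passed in aged EPA against young. In aged control against young the near-zero changes of Il15, Metrnl and Igf2 each took the other sign under 1 of the 10, so the side of 0 on which they stand is not a result. Ostn ranged from 1.02 to 1.23 there. The change of all genes went with exon length (Spearman's rho 0.26 in aged control against young, -0.20 in aged EPA against aged control, across 12965 genes, which are not independent). With that trend subtracted the members' medians were 0.051 and -0.16. No paired analysis was possible because each group is 1 library, and no replicate could be left out. Depth limits Gdf15, Fgf21 and Bdnf, with 0 to 78 counts.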

Other observations

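Other secreted factors of muscle differed in both directions between aged control and young. Of 25 compared genes, 8 were above and 17 below young in aged control, where 47.5% and 52.4% of all compared genes were, with a median of -0.054 (-0.013 over all). Gdf11, which encodes a relative of myostatin, stood at 22.3 CPM (1259 counts) in aged EPA, 19.4 CPM (1086 counts) in aged control and 9.42 CPM (541 counts) in young, a log2 change of 0.97 in aged control against young. Mstn itself, which encodes myostatin, was at 74.5, 81.1 and 70.7 CPM in aged EPA, aged control and young. Reads of the related genes were not inspected. Timp1, an inhibitor of matrix proteases, had 44, 59 and 138 counts, and Erfe, which encodes myonectin or erythroferrone, 38, 49 and 90 counts in the same order (Erfe shares 357 exon bases with a gene on the opposite strand). Postn, a matrix protein, stood at 8.56, 12.9 and 13.9 CPM. Cntf, a neurotrophic factor of Schwann cells, had 159, 85 and 35 counts, but shares 847 exon bases with Zfp91 on the same strand, so its assignment is uncertain. Il6 had 0 counts in every library, which allows up to 0.0536, 0.0521 and 0.0523 CPM in aged EPA, aged control and young.

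Among regulators, Nr4a3, an exercise-responsive nuclear receptor, stood at 21.3 CPM (1196 counts) in aged EPA, 10.3 CPM (593 counts) in aged control and 12.9 CPM (731 counts) in young, a count ratio of 2.08 (1.88 to 2.30) for aged EPA over aged control. Ppara, the fatty acid sensor, stood at 7.00, 11.1 and 6.64 CPM in aged EPA, aged control and young, with aged control the highest. Esrrg, a nuclear receptor of oxidative muscle, descended from young to aged EPA, at 29.1 CPM in aged EPA, 34.2 CPM in aged control and 45.8 CPM in young, and Nrf1 ascended, at 11.6, 9.11 and 7.54 CPM. Ly6a, a marker of fibro-adipogenic progenitors and endothelium from a family of similar genes, stood at 49.3, 21.3 and 60.7 CPM, whereas Pdgfra, the defining marker of those progenitors, was at 42.5, 43.4 and 41.0 CPM. Pdgfra shares exon bases with models on the opposite strand.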
